A study of Mus musculus with 80 samples.

Results

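The Myc and Max network was followed in wild-type E14 mouse embryonic stem cells (ESCs) as they were moved from serum medium to 2i. The 9 genes were taken by symbol from the RNA-seq table, which holds 25965 rows. They are *Myc*, *Mycn*, *Max*, *Mxi1*, *Mga*, *Mnt*, *Mxd3*, *Mxd4* and *Odc1*, and all 9 passed the filter on low values along with 12306 genes in all. RNA came from 12 libraries, 3 each from serum medium with LIF and from 6, 24 and 72 h in 2i. The 2i medium is serum-free and adds to LIF an inhibitor of MEK and an inhibitor of GSK3. Every library is of the same wild-type line, so no genotype was compared. The series of 80 samples also holds ChIP-seq against histone H3 dimethylated at lysine 9 (H3K9me2), with 2 bound libraries and 1 input for each of serum medium, 2i for 24 h and 2i kept up for the long term (LT2i). Its bisulfite libraries were not analysed here.

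MYC and MYCN are transcription factors that bind DNA as dimers with MAX at E-boxes with the core CACGTG, where they raise transcription of genes for ribosome production, nucleotide synthesis and cell growth. MAX also pairs with MXI1, MXD3, MXD4, MNT and MGA, which recruit repressors to E-boxes and so compete with MYC for MAX and for DNA. Phosphorylation by ERK steadies MYC protein and phosphorylation by GSK3 marks it for degradation. In 2i GSK3 is inhibited directly and ERK through MEK, and MYC protein was not measured here. *Odc1*, which encodes the rate-limiting enzyme of polyamine synthesis, is a classic MYC target.

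Promoter sequences of RefSeq (GRCm38.p6, 250 bases before to 50 bases after the gene start, written 5′ to 3′ on the gene's strand) were at hand for 8 of the 9 genes, in 10 windows. There was none for *Myc*, so the motif counts below do not cover it. The letters CACGTG, which read the same on both strands, occurred in 3 of the 10 windows and in 7.15% of 32851 windows genome-wide. These 3 windows belong to *Max*, *Mnt* and *Mxd4*, 1 partner and 2 antagonists, and are shown because they carry the hexamer that the network itself binds. In *Max* it begins 3 bases before the start, in *Mnt* 123 bases before and in *Mxd4* 219 bases before, and it is in capitals below. *Max* lies on the minus strand at chr12:76962199-76962498, *Mnt* on the plus strand at chr11:74830674-74830973 and *Mxd4* on the minus strand at chr5:34187661-34187960.
Max: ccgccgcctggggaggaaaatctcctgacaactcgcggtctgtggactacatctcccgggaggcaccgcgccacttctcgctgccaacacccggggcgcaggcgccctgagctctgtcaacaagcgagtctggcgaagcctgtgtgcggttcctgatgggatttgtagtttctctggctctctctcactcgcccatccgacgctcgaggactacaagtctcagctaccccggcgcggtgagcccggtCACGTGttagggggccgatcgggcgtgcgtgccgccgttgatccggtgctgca
Mnt: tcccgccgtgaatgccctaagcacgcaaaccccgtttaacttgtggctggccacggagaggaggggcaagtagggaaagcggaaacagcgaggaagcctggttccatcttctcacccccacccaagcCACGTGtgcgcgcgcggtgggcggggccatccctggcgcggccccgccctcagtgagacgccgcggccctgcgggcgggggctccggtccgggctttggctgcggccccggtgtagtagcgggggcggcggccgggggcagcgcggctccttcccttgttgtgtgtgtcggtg
Mxd4: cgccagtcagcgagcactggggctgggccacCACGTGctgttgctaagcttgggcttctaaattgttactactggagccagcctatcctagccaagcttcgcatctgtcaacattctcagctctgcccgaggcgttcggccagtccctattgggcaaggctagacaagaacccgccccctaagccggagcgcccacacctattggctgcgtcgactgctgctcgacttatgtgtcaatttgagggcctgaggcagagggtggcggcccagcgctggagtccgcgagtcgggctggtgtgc

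The window of *Mycn*, on the minus strand at chr12:12941787-12942086, held no CACGTG. It is shown because it was the only member window with an E2F motif, searched as TTTCCCGC or TTTGGCGC on both strands and found in 1.56% of all windows. The letters TTTGGCGC occur there at 183 and at 168 bases before the start, in capitals below.
Mycn: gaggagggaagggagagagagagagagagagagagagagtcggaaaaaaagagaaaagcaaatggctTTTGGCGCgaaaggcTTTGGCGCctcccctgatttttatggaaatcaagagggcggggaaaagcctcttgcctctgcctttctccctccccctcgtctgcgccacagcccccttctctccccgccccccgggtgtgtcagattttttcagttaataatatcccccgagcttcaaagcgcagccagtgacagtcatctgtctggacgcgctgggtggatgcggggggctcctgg
The ETS letters CCGGAAG (8.86% of all windows) and the TCF letters CTTTGAT (3.73%) were in none of the 10. CpG dinucleotides numbered 14 to 49 per window against a median of 7 over all windows, of which 36.3% held 14 or more. A match of letters is a description of the sequence and not a measured site of binding.

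Values are the log2 expression values of the authors, corrected for gene length and library depth, so levels can be compared between genes. The whole reads behind them were recovered for all 9 genes. Over all genes with recovered reads they totalled 10876218 to 16074561 per library. Means are given ± SD with n = 3 libraries per group. Changes are log2 differences with their SE from limma, and a call needed an adjusted p (Benjamini-Hochberg) below 0.05 over the 12306 genes. All 10 ESC markers examined were above 0 on the log2 scale in all 12 libraries (2.78 to 11.3), and at 72 h 5 of them were higher than in serum (*Nanog* by 1.72) and 3 lower, of which *Lin28a* fell by 3.91 and *Utf1* by 3.44. Of 9 fibroblast markers, 6 (*Col1a2*, *Col3a1*, *Pdgfra*, *Postn*, *Lum* and *Dcn*) stayed at or below 0 in every library, and so did 4 of 11 primitive endoderm markers (*Sox17*, *Sox7*, *Foxa2* and *Pdgfra*). The 3 tested fibroblast markers all passed at 72 h, *Pdgfrb* higher by 2.18 and *Col1a1* and *Thy1* at -0.96 and -0.46, and of 7 tested endoderm markers *Gata4* was higher (0.92) and *Dab2* (-1.08) and *Lamb1* (-0.56) lower. Of all genes 52.2% passed at 72 h. The summed linear level of the fibroblast list was 8.70 to 11.01 in serum and 10.1 to 11.3, 5.67 to 9.24 and 7.36 to 8.82 after 6, 24 and 72 h. That of the endoderm list was 40.3 to 49.8, 43.0 to 48.8, 24.9 to 40.1 and 31.6 to 45.0, and their part in the results was not tested. *Dusp6*, a feedback target of ERK, fell by 5.41 at 72 h (limma adjusted p 2.49e-09, SE 0.18), and of 12 genes listed as readouts of 2i 9 were lower and 2 higher. In 3 libraries genes with long spans were low against genes with short spans. With genes sorted by span into 5 equal bins, the median deviation from serum of the longest bin minus that of the shortest was -1.28 and -1.13 in 24 h replicates 1 and 2 and -0.74 in 72 h replicate 2, against -0.36 to 0.15 in the other 9. Counts are therefore also given without these 3 libraries, which leaves 1 library at 24 h that is assumed to vary like the other groups.

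At 6 h 4 of the 9 genes passed the threshold, *Myc*, *Mycn* and *Mxi1* lower than in serum and *Mxd3* higher, where 15.6% of all genes passed (6.48% lower, 9.13% higher). At 24 h 6 of 9 were lower and none higher, where 63.3% of all genes passed (29.1% lower, 34.2% higher). At 72 h 6 of 9 were lower and 1 was higher, against 52.2% of all genes (26.5% lower, 25.7% higher). The median change of the 9 genes was -0.34, -0.57 and -0.87 at the 3 times, beside medians over all genes of 0.01, 0.11 and -0.01. The 3 replicates did not overlap with those of serum for 7 of the 9 genes at 6 h (44.4% of all genes), 6 at 24 h (64.7%) and 7 at 72 h (63.5%). *Mxd4* passed the filter mainly through its serum libraries. It is among the genes called at 24 and 72 h and among those without overlap at all 3 times. It also enters the median change at each time, and the median of -0.87 at 72 h is its own value. *Mxd4* enters the counts and medians at all 3 times in the fit without the 3 libraries too, given below. The 3 comparisons share the serum libraries. Without the 3 libraries with the span trend, 6, 6 and 7 of 9 genes passed, against 27.0%, 49.9% and 59.6% of all genes, and their median change was -0.34, -1.01 and -0.71. With the replicate number as a block 5 passed at 6 h, adding *Max* lower, and 8 at 24 h, adding *Mnt* lower and *Mxd3* higher, against 20.9% and 71.0% of all genes. Without 72 h replicate 1 the count at 72 h was 4, with *Mxi1*, *Mxd3* and *Mxd4* no longer past the threshold. Over all genes, leaving out 1 library or 1 replicate number gave 3670 to 7321 at 72 h, in place of 6429.

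**Figure D1:**
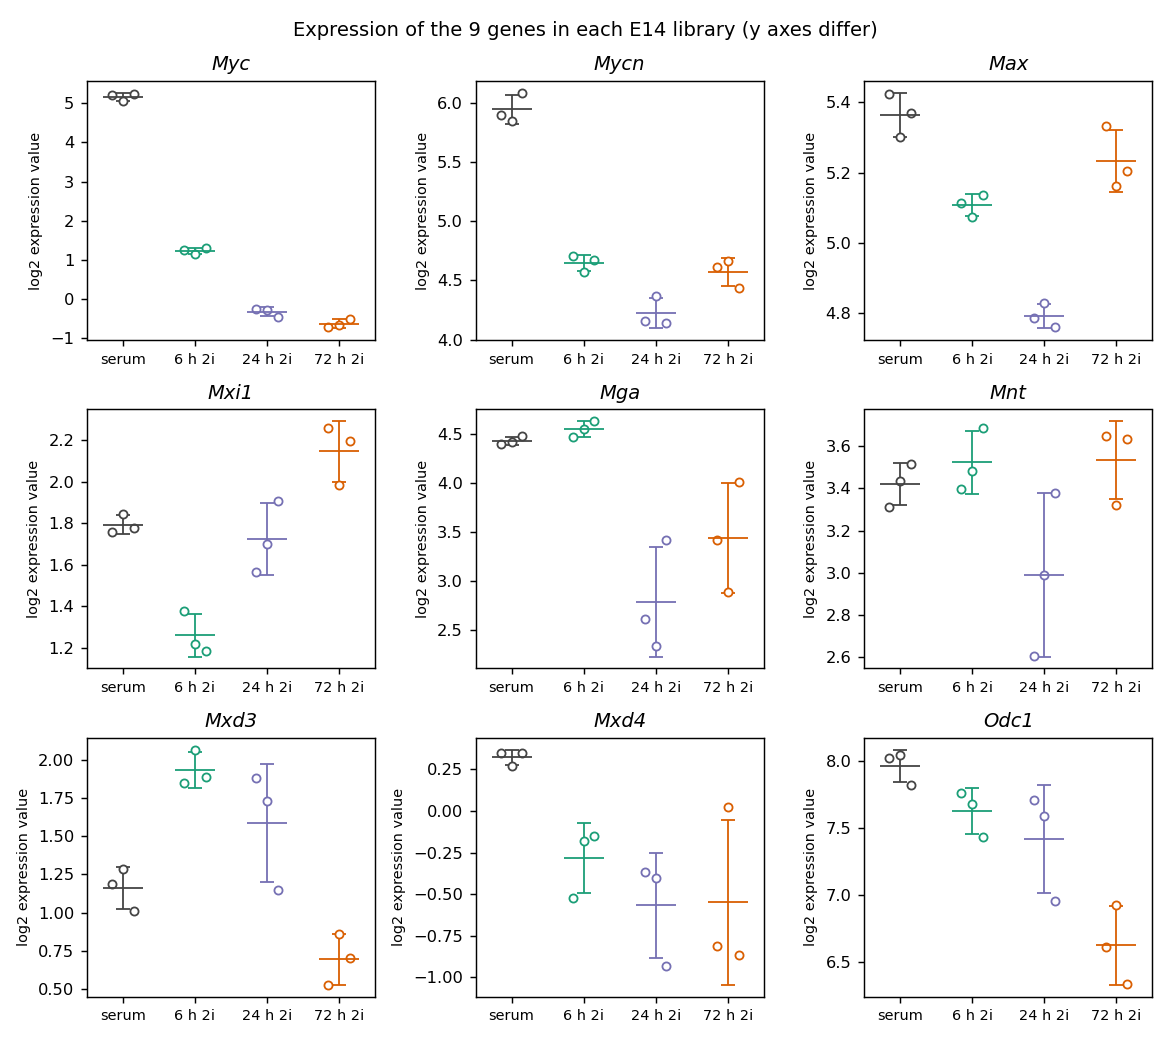
Log2 expression value (y axis, a separate scale for each gene) of the 9 genes in the 4 groups. Circles are single libraries, and bars are the mean ± SD of 3. *Myc* drops from 5.17 in serum to -0.62 at 72 h, whereas *Max* lies between 4.76 and 5.43 in every library.

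*Myc* (chromosome 15, 61985391 to 61990374, plus strand, GRCm38 as for all spans given here) fell furthest. Its values were 5.22, 5.05 and 5.23 in the serum libraries. After 6 h the values were 1.25, 1.15 and 1.31, the 24 h ones -0.24, -0.26 and -0.45 and the 72 h ones -0.72, -0.65 and -0.50. All 9 libraries of 2i lay below all of serum, and each later time lay wholly below the one before. Only serum and 6 h libraries passed 0, the level of the filter. These values rest on 1401 to 2329 reads per library in serum, 110 to 129 at 6 h, 39 to 44 at 24 h and 32 to 38 at 72 h. The change from serum was -3.93 at 6 h (limma adjusted p 9.75e-09, SE 0.11), -5.48 at 24 h (adjusted p 2.31e-10) and -5.79 at 72 h (adjusted p 1.26e-10), which left 6.57%, 2.24% and 1.81% of the serum level. Among the 12306 genes only 4 had a lower change at 6 h, where *Myc* ranked 5th from the lowest, and it ranked 6th at 24 h and 14th at 72 h. From 6 to 24 h it fell by a further 1.55 (adjusted p 4.15e-06), and the step from 24 to 72 h, -0.31, did not pass the threshold (adjusted p 0.0598) and was -0.012 with the span trend removed (adjusted p 0.955). That step passed in 3 of 27 alternatives. These were the replicate block (adjusted p 0.0478) and the fits without 24 h replicate 3 (-0.37, adjusted p 0.0226) or replicate number 3 of all groups (-0.43, adjusted p 0.0274). RNA was taken from whole cultures, in which fewer expressing cells and less RNA per cell cannot be told apart.

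*Mycn* (chromosome 12, 12936096 to 12941914, minus strand), the family member best known from embryonic and neural cells, was the more abundant of the pair in every library. Its values were 5.90, 5.85 and 6.09 in the serum libraries. In 2i the 6 h libraries read 4.70, 4.57 and 4.67, the 24 h ones 4.16, 4.37 and 4.14 and the 72 h ones 4.61, 4.66 and 4.44. The 9 libraries of 2i again lay below all of serum, and those of 24 h were the lowest of the 4 groups. *Mycn* changed by -1.30 at 6 h (limma adjusted p 1.30e-05, SE 0.11), -1.72 at 24 h (adjusted p 4.05e-07) and -1.38 at 72 h (adjusted p 1.45e-06), to 40.7%, 30.3% and 38.5% of serum. It fell by 0.42 from 6 to 24 h (adjusted p 0.00633) and rose by 0.35 from 24 to 72 h (adjusted p 0.0318). The call of this rise was lost in 7 of 27 alternatives. The rise was 0.38 without the 3 libraries and 0.63 with the span trend removed (adjusted p 0.00162). Since *Mycn* kept a larger part of its level, *Myc* made up 36.8% ± 1.45 of the summed linear levels of the pair in serum and 8.59% ± 0.27, 4.13% ± 0.35 and 2.68% ± 0.42 at 6, 24 and 72 h. Both genes kept their calls at all 3 times under every alternative tried.

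*Max* (chromosome 12, 76937269 to 76962248, minus strand), the common partner, changed far less than *Myc*. It measured 5.43, 5.30 and 5.37 in the serum libraries. Values at 6 h were 5.11, 5.07 and 5.14, the 24 h ones 4.79, 4.83 and 4.76 and the 72 h ones 5.33, 5.16 and 5.20. The libraries of 6 h and of 24 h lay below serum without overlap, and those of 72 h overlapped with it. The change was -0.26 at 6 h (limma adjusted p 0.0726, SE 0.09), -0.57 at 24 h (adjusted p 0.000204) and -0.13 at 72 h (adjusted p 0.227). At 6 h it passed with the span trend removed (adjusted p 0.0246) without the 3 libraries (adjusted p 0.0256), with only the serum and 6 h libraries (adjusted p 0.0182) and with the replicate number as a block (adjusted p 0.0398). *Max* rose again by 0.44 from 24 to 72 h (adjusted p 0.00324), which held without the 3 libraries (0.51, adjusted p 0.0106). The call was lost in 3 of 27 alternatives, with only the 24 and 72 h libraries compared (adjusted p 0.0643) and without replicate number 1 (0.39, adjusted p 0.141) or 2 (0.49, adjusted p 0.0602) of all groups.

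**Figure D2:**
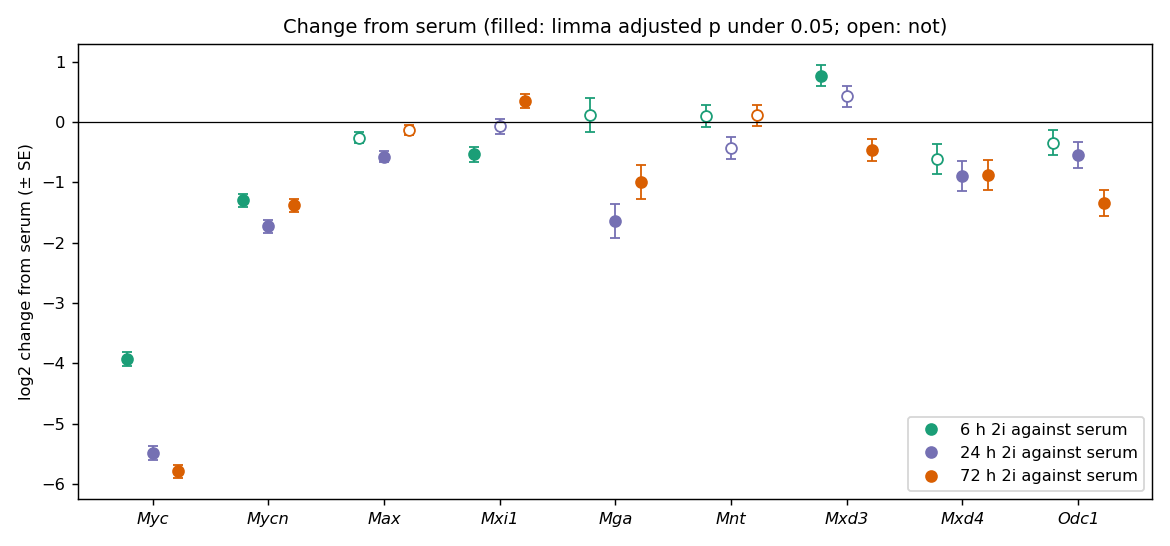
Log2 change from serum (y axis, ± SE from limma) of each gene at 6, 24 and 72 h in 2i. Filled points passed an adjusted p under 0.05 and open points did not. *Myc* reaches -5.79, *Mycn* stays between -1.72 and -1.30, and the 4 antagonists *Mxi1*, *Mnt*, *Mxd3* and *Mxd4* lie between -0.89 and 0.77.

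The antagonists did not move as a group. *Mxi1* (chromosome 19, 53310506 to 53375810, plus strand), also named Mxd2, measured 1.76, 1.85 and 1.78 in the serum libraries. The 6 h libraries gave 1.38, 1.22 and 1.19, the 24 h ones 1.56, 1.70 and 1.91 and the 72 h ones 2.26, 1.98 and 2.19. It thus lay wholly below serum at 6 h, overlapped with it at 24 h and lay wholly above it at 72 h. The change was -0.53 at 6 h (limma adjusted p 0.0109, SE 0.12), -0.07 at 24 h (adjusted p 0.628) and 0.35 at 72 h (adjusted p 0.0286). The value at 24 h turned to 0.21 with the span trend removed and 0.11 without the 3 libraries, and the call at 72 h was lost in 8 of 27 alternatives, all of which left out a library, while its sign held in all 27. From 6 to 24 h *Mxi1* rose by 0.46 (adjusted p 0.00685) and from 24 to 72 h by 0.42 (adjusted p 0.0215). The second call was lost in 9 of 27 alternatives, among them the span trend removed (0.26, adjusted p 0.0598). Without the 3 libraries the second rise was 0.32.

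*Mxd3* (chromosome 13, 55325168 to 55329758, minus strand), the member of the family expressed in dividing cells, measured 1.19, 1.28 and 1.01 in the serum libraries. After 6 h the values were 1.85, 2.07 and 1.88, the 24 h ones 1.88, 1.73 and 1.15 and the 72 h ones 0.53, 0.86 and 0.70. It was wholly above serum at 6 h and wholly below it at 72 h, and at 24 h replicate 3 fell within the serum range while the other two lay above it. It rose by 0.77 at 6 h (limma adjusted p 0.0130, SE 0.18), a call lost in 4 of 27 alternatives, among them those without serum replicate 3 (0.70, adjusted p 0.0534) and without 6 h replicate 2 (0.71, adjusted p 0.0616). At 24 h the change was 0.43 (adjusted p 0.0574). It passed in 4 of 27 alternatives, among them the replicate block (adjusted p 0.0312) and without 24 h replicate 3 (0.64, adjusted p 0.00174), and without the 3 libraries it was -0.010. At 72 h it was -0.46 (adjusted p 0.0487), a call lost in 18 of 27 alternatives. The step from 24 to 72 h was -0.89 (adjusted p 0.00371), and without the 3 libraries -0.54 (adjusted p 0.0564). Reads of *Mxd3* numbered 65 to 160 per library. Its end overlaps by 104 bases with *Prelid1* on the other strand, which stood at 7.17, 7.17, 7.45 and 7.35 in the 4 groups, and the library kit does not mark strand, so reads in the overlap cannot be assigned.

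*Mxd4* (chromosome 5, 34173887 to 34187720, minus strand), the family member linked to differentiated cells, was the lowest antagonist. It passed the filter with 4 libraries above 0, the 3 of serum and 72 h replicate 2, so a fall was built into its selection. It measured 0.35, 0.27 and 0.35 in the serum libraries. In 2i the 6 h libraries read -0.53, -0.18 and -0.15, the 24 h ones -0.37, -0.40 and -0.93 and the 72 h ones -0.81, 0.02 and -0.86, on 41 to 113 reads per library. All libraries of 2i lay below those of serum. The change was -0.61 at 6 h (limma adjusted p 0.143), -0.89 at 24 h (SE 0.25, adjusted p 0.00953) and -0.87 at 72 h (adjusted p 0.0126). At 6 h it passed in 2 of 26 alternatives, among them only the serum and 6 h libraries (adjusted p 0.0178). The call at 24 h was lost in 2 of 26 alternatives and that at 72 h in 3 of 26. Neither of the later steps passed the threshold.

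*Mnt* (chromosome 11, 74830920 to 74845725, plus strand), the most widely expressed antagonist in textbook accounts, was also the most abundant of the 4 here. It measured 3.31, 3.43 and 3.52 in the serum libraries. Values at 6 h were 3.40, 3.48 and 3.69, the 24 h ones 2.60, 2.99 and 3.38 and the 72 h ones 3.65, 3.32 and 3.63. Each group of 2i overlapped with serum. No change from serum passed the threshold, with 0.10 at 6 h (limma adjusted p 0.822), -0.43 at 24 h (SE 0.18, adjusted p 0.0510) and 0.11 at 72 h (adjusted p 0.616). At 24 h it passed in 5 of 27 alternatives, among them the span trend removed (-0.62, adjusted p 0.0222) and the replicate block (adjusted p 0.0193), and stood at -0.04 without the 3 libraries. The fall of 0.53 from 6 to 24 h (adjusted p 0.0226) and the rise of 0.54 from 24 to 72 h (adjusted p 0.0368) both lost their calls without the 3 libraries, where they were -0.14 and 0.26.

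*Mga* (chromosome 2, 119897228 to 119969581, plus strand) encodes a large protein that binds both E-boxes, through MAX, and T-box sites, and that scaffolds a variant Polycomb complex in ESCs. It measured 4.40, 4.41 and 4.48 in serum and 4.47, 4.55 and 4.63 at 6 h, with overlap. At 24 h it stood at 2.61, 2.34 and 3.41 and at 72 h at 3.42, 2.89 and 4.01, all 6 below serum and with a far wider spread than at 6 h. The change was 0.12 at 6 h (limma adjusted p 0.890), -1.64 at 24 h (SE 0.28, adjusted p 0.000478) and -0.99 at 72 h (adjusted p 0.0123). *Mga* spans 72354 bases, more than 84.6% of tested genes, and its lowest libraries were those in which long genes were lowest, 24 h replicates 1 and 2 and 72 h replicate 2. With these left out the change was -1.01 at 24 h (adjusted p 0.00192) and -0.71 at 72 h (adjusted p 0.00255). Leaving out 72 h replicate 2 alone gave -0.71 at 72 h (adjusted p 0.0508). With the span trend removed from all libraries it was -1.34 at 24 h (adjusted p 0.000358) and -0.87 at 72 h (adjusted p 0.00640).

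On the linear scale, in units corrected for gene length, the summed level of *Myc* and *Mycn* was 97.8 ± 7.34 in serum and 27.5 ± 1.30, 19.5 ± 1.72 and 24.5 ± 1.88 after 6, 24 and 72 h. The 4 antagonists together stood at 17.7 ± 0.71 in serum and 18.6 ± 1.15, 15.2 ± 1.71 and 18.4 ± 1.42 at 6, 24 and 72 h. The ratio of the activators to *Max* was 2.37 ± 0.16 in serum and 0.796 ± 0.0249, 0.705 ± 0.0458 and 0.652 ± 0.0651 in 2i. Activator transcripts thus exceeded those of the partner in each serum library (2.26 to 2.55) and stood below them in each library of 2i (0.607 to 0.822). The ratio of the activators to the 4 antagonists was 5.53 ± 0.43 in serum and 1.48 ± 0.13, 1.30 ± 0.18 and 1.34 ± 0.19 in 2i. With *Mga* added to the antagonists it was 2.49 ± 0.16 in serum and 0.656 ± 0.0551, 0.894 ± 0.202 and 0.848 ± 0.220 in 2i. This last ratio was highest in the libraries with the span trend, at 0.954 and 1.06 in 24 h replicates 1 and 2 and 1.07 in 72 h replicate 2. It was 0.668 in 24 h replicate 3 and 0.834 and 0.634 in 72 h replicates 1 and 3. None of the ratios was adjusted for the span trend, and its part in them was not tested. These ratios are of transcript levels and say nothing of protein. With 3 libraries a group they are given as descriptions.

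**Figure D3:**
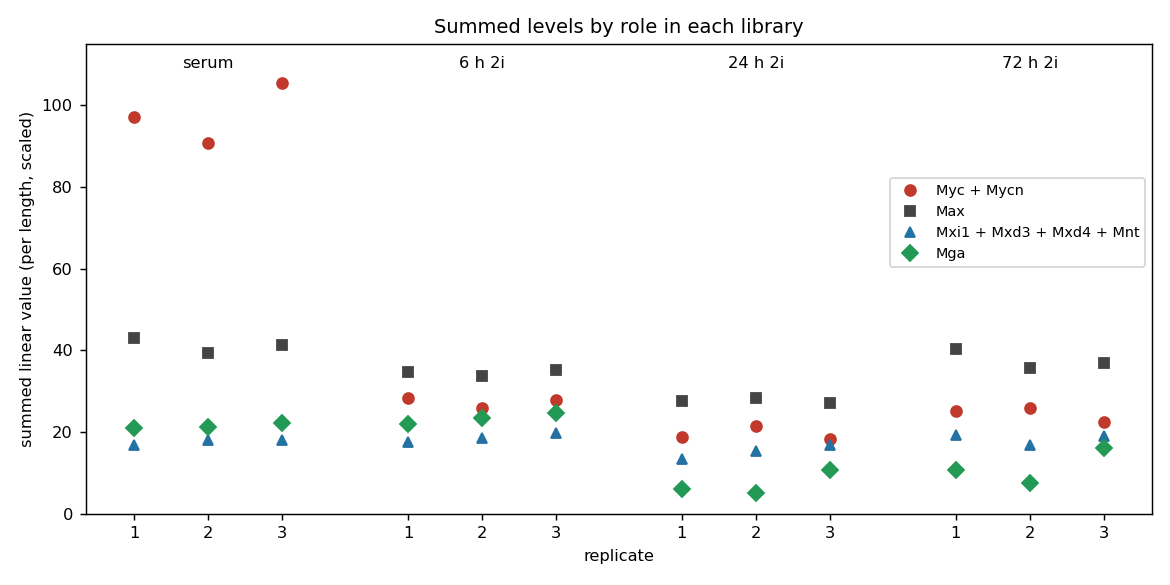
Summed linear expression values (y axis, corrected for gene length and depth) by role in each of the 12 libraries (x axis, replicate within group). *Myc* with *Mycn* lies at 90.8 to 105 in serum and at 18.4 to 28.4 in 2i, below *Max* in each library of 2i, while the 4 antagonists together stay between 13.5 and 19.8.

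*Odc1* (chromosome 12, 17544873 to 17551502, plus strand), the listed target, was the most abundant of the 9 genes. It measured 8.02, 8.04 and 7.83 in the serum libraries. The 6 h libraries gave 7.77, 7.68 and 7.44, the 24 h ones 7.71, 7.59 and 6.96 and the 72 h ones 6.61, 6.93 and 6.34. Every library of 2i lay below serum, and the 72 h libraries lay below all others. The change was -0.34 at 6 h (limma adjusted p 0.359), -0.54 at 24 h (SE 0.21, adjusted p 0.0392) and -1.34 at 72 h (adjusted p 0.000260), when 39.5% of the serum level remained. At 6 h it passed in 2 of 27 alternatives, quantile normalisation (-0.29, adjusted p 0.0356) and only the serum and 6 h libraries (adjusted p 0.0487). The call at 24 h was lost in 10 of 27 alternatives and was kept without the 3 libraries, where the change of -1.01 rests on 24 h replicate 3 alone. Without that library it was -0.31 (adjusted p 0.126). With the span trend removed from all libraries the change at 24 h was -0.89 (limma adjusted p 0.000126). The fall of 0.80 from 24 to 72 h (adjusted p 0.0143) lost its call in 7 of 27 alternatives. This change was -0.49 without the 3 libraries and -0.53 with the span trend removed (limma adjusted p 0.00958). *Odc1* has processed copies in the mouse genome, and no source read here says how the reads were divided among them.

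Between neighbouring times 6 of 9 genes passed from 6 to 24 h, 5 lower (*Myc*, *Mycn*, *Max*, *Mga* and *Mnt*) and *Mxi1* higher, where 59.4% of all genes passed (28% lower, 31.4% higher). The same 6 did not overlap between the 2 groups, against 61.8% of all genes. With the 3 libraries left out 6 were lower and 1 higher, against 41.0% of all genes. The set differs, since in that fit *Mnt*, *Mxd3* and *Odc1* changed by -0.14, -0.78 and -0.67, in place of -0.53, -0.35 and -0.21. With the span trend removed the change of *Mxd3* was -0.76 (limma adjusted p 0.000447). From 24 to 72 h 6 of 9 passed, *Mycn*, *Max*, *Mxi1* and *Mnt* higher and *Mxd3* and *Odc1* lower, where 31.6% of all genes passed (15.8% higher, 15.7% lower). Without overlap were *Mycn*, *Max* and *Mxi1* above and *Myc*, *Mxd3* and *Odc1* below, 6 of 9 against 33.5% of all genes. Without the 3 libraries *Max* alone passed in the second comparison, against 19.9% of all genes. Its count was 2 without 24 h replicate 1 (23.2% of all genes), 3 without 24 h replicate 2 (21.4%) and 8 without 24 h replicate 3 (54.4%). It was 3 without 72 h replicate 1 (19.7%) and 3 without 72 h replicate 3 (22.5%).

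The genes most like *Myc* were those with the smallest mean absolute difference in log2 change from their own serum mean over the 9 libraries of 2i, among 12297 genes. *Tnfsf11*, the cytokine RANKL, was nearest at 0.45, but at 0.42 in serum it was a low gene. *Dusp4* (0.65) and *Dusp6* (0.78) encode phosphatases of ERK and its kin, *Egr1* (0.82) an immediate early factor and *Pou3f1* (0.83) a POU factor of the primed state. The median distance over all genes was 5.11. *Dusp4* changed by -3.26, -4.65 and -5.91 at 6, 24 and 72 h. Those nearest to *Mycn* were *Mkrn1* (0.15), which encodes a ubiquitin ligase, *Basp1* (0.16), *Gm8258* (0.17), *Nfkb1* (0.18), a subunit of NF-kappaB, and *Ctnnal1* (0.18), with a median over all genes of 1.52. *Mkrn1* changed by -1.18, -1.63 and -1.54.

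Of 40 listed targets of MYC, mostly genes of ribosome production and nucleotide synthesis, 8 were lower and 1 higher at 6 h, 25 lower and 4 higher at 24 h and 27 lower and 2 higher at 72 h. These are 22.5%, 72.5% and 72.5% of the list, beside 15.6%, 63.3% and 52.2% of all genes. This list and those below were chosen with earlier results of these data known, so their shares are given as descriptions. Their median change was -0.22, -0.50 and -0.48. Without the 3 libraries 25 were lower and 2 higher at 24 h and 29 lower and 2 higher at 72 h, where 49.9% and 59.6% of all genes passed. The 4 with the largest change at 72 h were *Ccnd2*, which encodes cyclin D2 (-3.13, limma adjusted p 3.09e-07), *Polr1b*, a subunit of RNA polymerase I (-1.63), *Ddx21*, a nucleolar helicase (-1.32), and *Nolc1*, a nucleolar phosphoprotein (-1.32). *Polr1b* was already lower at 6 h (-0.67, adjusted p 0.00830), as was *Hk2*, hexokinase 2 (-0.92, adjusted p 0.00747). The 2 genes higher at 72 h, named after their values were seen, were *Shmt2*, the mitochondrial serine hydroxymethyltransferase (0.81, adjusted p 4.78e-05), and *Slc7a5*, an amino acid transporter (0.51, adjusted p 0.00712). *Odc1* is not among the 40.

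Of 7 genes listed as repressed by MYC, 4 were higher and 1 lower at 6 h, and 5 were higher and 1 lower at both 24 and 72 h, with median changes of 0.70, 1.17 and 1.18. Of all genes 9.13%, 34.2% and 25.7% were higher. Without the 3 libraries 3 were higher at 24 h and 5 at 72 h, where 49.9% and 59.6% of all genes passed in either direction. *Cdkn1a*, which encodes the cell cycle inhibitor p21, rose from 3.85 ± 0.02 in serum to 6.39 ± 0.19 at 72 h, by 1.37, 2.30 and 2.54 at the 3 times (limma adjusted p 5.18e-08 at 72 h). *Cdkn1b*, for the inhibitor p27, rose by 0.84, 1.17 and 1.64. *Ndrg1* rose by 1.12 at 6 h and 2.03 at 72 h and stood at 0.11 at 24 h. *Gadd45a*, a stress-induced gene, was the exception and fell by 1.58, 1.27 and 1.69.

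**Figure D4:**
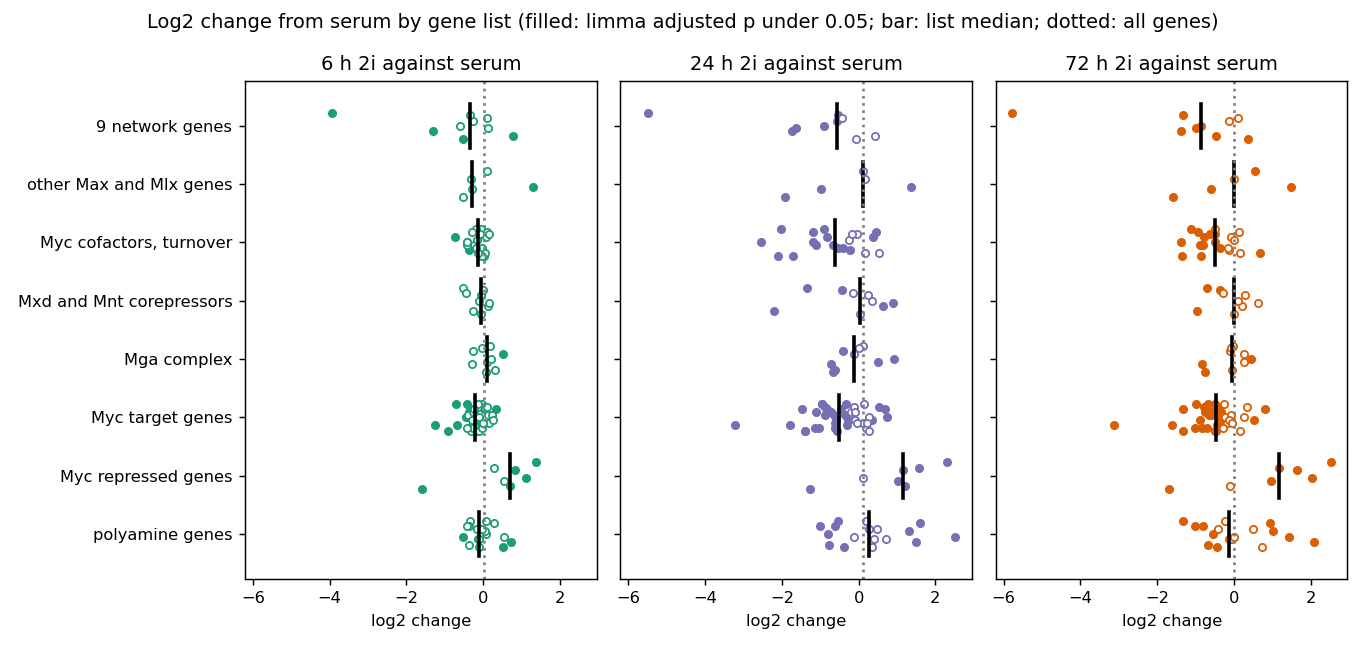
Log2 change from serum (x axis) of the tested genes of 8 lists (rows) at 6, 24 and 72 h in 2i. Filled points passed a limma adjusted p under 0.05, black bars are list medians and dotted lines the median of all genes. The MYC targets lie at a median of -0.48 at 72 h and the MYC-repressed genes at 1.18.

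The other genes of the Max and Mlx network numbered 5, of which 4 passed at 72 h, beside 52.2% of all genes, and 4 with the 3 libraries left out, beside 59.6%. At 72 h *Mlxipl* (1.48, limma adjusted p 0.00484), which encodes the glucose sensor ChREBP, and *Mycl* (0.55, adjusted p 0.0134) were higher, and *Mlxip* (-1.59, adjusted p 0.000347), which encodes its paralogue MondoA, and *Mxd1* (-0.61, adjusted p 0.0374) were lower. *Mycl* rose from 1.48 ± 0.12 to 2.03 ± 0.21, far below the level of *Mycn*. In 2i its means of 1.58, 1.61 and 2.03 at 6, 24 and 72 h lay above those of *Myc* (1.24, -0.32 and -0.62). *Mlx*, the partner of ChREBP and MondoA, did not pass the threshold at any time (0.01 at 72 h).

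Of 20 cofactors of MYC and enzymes of its turnover, 2 were lower at 6 h, 13 lower and 2 higher at 24 h, and 12 lower and 1 higher at 72 h. These are 10%, 75% and 65% of the list, beside 15.6%, 63.3% and 52.2% of all genes. The largest changes at 72 h were those of *Bptf* (-1.38), a subunit of a chromatin remodeller, *Huwe1* (-1.35), a ubiquitin ligase, *Trrap* (-1.11), a scaffold of acetyltransferase complexes, and *Usp36* (-0.94), a nucleolar deubiquitinase. The first 3 encode very large proteins and, like *Mga*, had a wide spread at 72 h (SD 0.49 to 0.58, against 0.13 to 0.19 in serum). With the 3 libraries left out, 12 of 20 were lower and 1 higher at 24 h and 13 lower and 1 higher at 72 h, where 49.9% and 59.6% of all genes passed. *Fbxw7*, the ubiquitin ligase that reads the GSK3 mark on MYC, stood at -0.54 at 24 h (limma adjusted p 0.0136), a called fall, and at -0.16 at 72 h.

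Of 9 corepressor genes used by the MXD proteins and MNT, 3 were lower and 2 higher at 24 h and 3 were lower at 72 h, *Ncor1* (-0.97), *Sin3a* (-0.69) and *Rbbp7* (-0.36). These are 55.6% and 33.3% of the list, below the 63.3% and 52.2% of all genes. With the 3 libraries left out, 4 of 9 were lower at 24 h, and 4 were lower and 1 higher at 72 h, where 49.9% and 59.6% of all genes passed. Of 9 partners of MGA in its Polycomb complex 4 were lower and 2 higher at 24 h (66.7%), and 2 were lower and 1 higher at 72 h (33.3%). The last were *L3mbtl2* (-0.85), *Tfdp1* (-0.77) and *Yaf2* (0.44), and without the 3 libraries 2 were lower and none higher. *Pcgf6*, the subunit that defines the complex, stood at -0.02 at 72 h and did not pass at any time.

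Of 18 polyamine genes, among them *Odc1*, 17 were tested. At both 24 and 72 h 6 were lower and 4 higher (58.8%, beside 63.3% and 52.2% of all genes), with medians of 0.28 and -0.12. With the 3 libraries left out the medians were -0.24 and -0.41. In that fit 5 were lower and 4 higher at 24 h and 9 lower and 5 higher at 72 h, where 49.9% and 59.6% of all genes passed. Next to *Odc1*, spermidine synthase *Srm*, which is also among the 40 targets, fell by 1.01 at 72 h (SE 0.15, limma adjusted p 0.000186). The largest rises at 72 h were those of *Smox*, spermine oxidase, by 2.08 (adjusted p 1.31e-07), and of *Azin2*, an antizyme inhibitor, by 1.42 (adjusted p 0.000372). At 24 h *Azin2* had the highest change of the list, 2.51 (adjusted p 6.30e-06).

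H3K9me2, a mark of repressed chromatin, was read over each gene span with 2000 bases on each side. The 9 bound and input libraries held 14396552 to 23785128 reads in 2000-base bins. At 8 of the 9 genes the mark lay below the median of all genes in serum, at the 6.27th percentile for *Mxd3* and the 33.2nd for *Odc1*, and *Mxd4* stood at the 53.9th. Against the input of its group, the signal of *Myc* was -2.01 and -2.53 in the 2 serum libraries, -1.55 and -2.12 at 24 h and -2.21 and -2.11 in LT2i on the log2 scale, with overlap between the groups. That of *Mxi1* was -2.12 and -2.18 in serum, -2.41 and -2.41 at 24 h and -3.42 and -3.42 in LT2i, lowest in LT2i. These spans hold few reads, 20 to 37 per bound library over *Myc* and 1 to 11 over *Mxd3*.

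At 24 h no gene of 24032 passed the threshold in limma for H3K9me2 (0%), and none of the 9. At an unadjusted p under 0.05, 2913 genes and 0 of the 9 passed. With quantile normalisation 2 genes and with bins around the gene start 4 genes passed, none of them a member. In LT2i 61.7% of genes passed, 54.1% lower and 7.66% higher, and the median of all genes was -0.60. The values are scaled by library depth, so these changes are relative to the rest of each library. A change in the total amount of the mark cannot be read from them. Of the 9 genes 6 were lower, *Mxi1* (-1.31), *Max* (-1.15), *Mxd3* (-0.93), *Mga* (-0.82), *Mnt* (-0.78) and *Odc1* (-0.62). Relative to the median of all genes these are -0.71, -0.55, -0.33, -0.22, -0.18 and -0.02. A bin without reads is entered as 0.9 reads. The LT2i libraries held 3 and 1 reads over the 5 bins of *Mxd3*, 10 and 6 over the 10 of *Mnt* and 50 and 32 over the 39 of *Mga*. The size and order of the falls of these genes, and their distance from the median of all genes, are therefore limited by this floor. *Mycn* (-0.39), *Mxd4* (-0.50) and *Myc* (-0.18) did not pass, and lay above that median by 0.21, 0.10 and 0.42. *Mycn* passed in eBayes without trend (limma adjusted p 0.0298), and *Mxd4* without serum replicate 2 (-0.77, adjusted p 0.0252). Under quantile normalisation, which removes the general shift, none of the 9 passed and *Mga*, *Mnt* and *Odc1* turned positive. The count was 2 without LT2i replicate 1. Over all genes, leaving out 1 library gave 11367 to 14393 in place of 14837. With bins around the gene start none of these 6 genes passed, *Mxi1* and *Max* turned positive (0.27 and 0.040), and *Mxd4* passed instead (-1.66, limma adjusted p 0.00441).

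**Figure D5:**
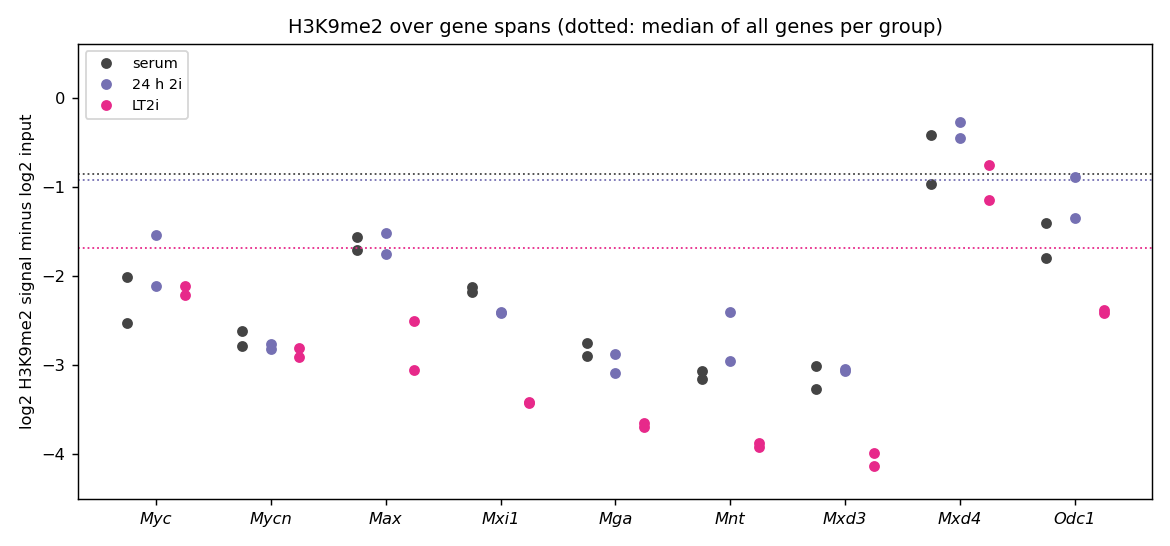
H3K9me2 over the spans of the 9 genes as log2 signal minus log2 input of the same group (y axis), 1 point per bound library, with 2 libraries each in serum, LT2i and 2i for 24 h. Dotted lines are the medians of all genes (-0.86 in serum, -0.92 in 2i for 24 h and -1.69 in LT2i). *Mxd4* lies above the median of its group in 5 of 6 libraries and *Odc1* in 1, and the other genes lie below it throughout.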

How the data were processed

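RNA-seq libraries (TruSeq RNA v2, 50 bp single-end) and H3K9me2 ChIP-seq libraries were grouped by their labels. The authors deposited log2 values per gene for RNA-seq, set to 1 common 75th percentile, and log2 values per 2000-base bin for ChIP-seq. The ChIP-seq values were scaled by depth. A read counted 1.22 in serum bound replicate 1 (19279328 reads) and 1.63 in 24 h bound replicate 1 (14396552 reads). The submitters' processing notes name Trim Galore 0.3.5, TopHat2 2.0.11, Bowtie2 and the build GRCm38, and the read counter was not given in the sources used here. From the deposited values, a feature without reads was entered as 0.9 reads, and whole reads were recovered for 25955 of 25965 genes within 0.05 reads.

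Expression was tested with limma 3.58.1 in R 4.3.3 (lmFit, eBayes with trend) in 1 fit of all 12 libraries, over genes above 0 in 3 or more libraries. H3K9me2 was tested likewise on the 6 bound libraries. The scripts were tested on simulated data. The study describes its expression replicates as biological. The labels do not say whether the ChIP-seq replicates are separate cultures, and their p-values then measure only the spread between these libraries. The 9 genes and the lists were chosen with earlier results of these data known. All 9 were named, as were the 5 nearest profiles to *Myc* and *Mycn* and, per list, the 4 largest called changes at 72 h. Markers that passed and *Hk2*, *Fbxw7*, *Pcgf6*, *Mlx*, *Shmt2* and *Slc7a5* were named outside this rule, after their values were seen. Markers of ESCs, fibroblasts and primitive endoderm were read as values. Deviations of libraries with the same replicate number correlated above 0.1 in 15 of 18 pairs (lowest -0.25). All 3 pairs did so between serum and 6 h (0.16 to 0.54) and between serum and 24 h (0.11 to 0.47), so values with the number as a block are given beside those results where they change a call. In the other comparisons and in ChIP-seq (0.01 to 0.07) not all pairs did so. Libraries of unlike number also correlated, such as serum replicate 2 with 24 h replicate 1 (0.34, against 0.11 with 24 h replicate 2). The check therefore cannot show whether the numbers pair the samples. Alternatives changed the filter, scaling, pseudocount, variance model, libraries, span trend and, for ChIP-seq, the region and input. Bisulfite libraries were not used here.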

Additional observations from a re-analysis of the deposited data

How the results depend on the processing

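The fall of *Myc* and *Mycn* at all 3 times, of *Max* and *Mga* at 24 h and of *Odc1* at 72 h kept its direction and call under all 27 alternatives fitted for each gene. Requiring an absolute log2 change of 1 or more left 2, 3 and 3 of the 9 genes at 6, 24 and 72 h against serum, 2 from 6 to 24 h and 0 from 24 to 72 h, in place of 4, 6, 7, 6 and 6. Over all genes it left 652, 3378, 2579, 2713 and 1174 in place of 1920, 7786, 6429, 7314 and 3886. A mean value of 1 or more left 1253 genes at 6 h. With only the 6 libraries compared, 7 of the 9 and 3585 genes passed at 6 h, and 1 and 1587 from 24 to 72 h. Without the 3 libraries with the span trend, chosen after the data were seen, 3320 genes passed at 6 h, and 1 of the 9 and 2448 genes from 24 to 72 h. In limma voom on the recovered reads, also chosen afterwards, only *Mxd3* at 72 h lost a call against serum (adjusted p 0.0790). The sign turned at 24 h for *Mxi1* (0.21 with the span trend removed, 0.11 without the 3 libraries) and *Mxd3* (-0.010 without them). The causes were not tested.

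Leaving out 1 library gave 3 to 4, 4 to 7, 5 to 6 and 2 to 8 of the 9 genes at 6 h, at 72 h, from 6 to 24 h and from 24 to 72 h, and over all genes 1230 to 2434 at 6 h and 2427 to 6692 from 24 to 72 h. Leaving out all libraries of 1 replicate number, chosen after the data were seen, gave 2 to 4, 3 to 5, 3 to 5 and 0 to 8 of the 9. Over all genes it gave 517 (556 for the next lowest) to 1848 at 6 h, 4512 (5078) to 8677 at 24 h, 3670 (4215) to 7273 at 72 h, 3290 (3804) to 8448 from 6 to 24 h and 895 (1373) to 5846 from 24 to 72 h. Across both ways of leaving libraries out, 3670 to 7321 genes passed at 72 h and 3290 to 8605 from 6 to 24 h. Leaving out 1 library, *Mxi1* at 24 h ranged from -0.16 to 0.011, *Odc1* from 6 to 24 h from -0.35 to 0.024 and *Mxd4* from 24 to 72 h from -0.27 to 0.17. Without a replicate number *Mxd4* gave -0.19, -0.0087 and 0.24. The change of *Odc1* from 6 to 24 h was -0.21 and not called in the main fit. It passed with the span trend removed (-0.56, limma adjusted p 0.00361) and under quantile normalisation (-0.82, limma adjusted p 2.39e-05), and was -0.67 without the 3 libraries.

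With the replicate number as a block, 5, 8, 7, 6 and 8 of the 9 genes passed in the 5 expression comparisons, over 2569, 8739, 7498, 8393 and 5791 genes. For H3K9me2 the block left 0 and 6 of the 9, over 0 and 14807 genes. Besides the calls given above for *Max*, *Mnt* and *Mxd3*, it added *Myc* (limma adjusted p 0.0478) and *Mga* (adjusted p 0.0273) from 24 to 72 h. Pairs of the same number correlated there at -0.25, 0.58 and 0.81. The block changed no other call of the 9. Of the 12 RNA libraries 8 correlated best with their own number.

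For H3K9me2 at 24 h, bins around the gene start gave 4 genes and quantile normalisation 2. The signs of *Mycn* (-0.22), *Mxi1* (0.14) and *Mxd4* (-0.58) turned with bins around the gene start, those of *Mycn* (-0.084) and *Max* (-0.0038) with input subtracted, and that of *Mycn* (-0.0047) under quantile normalisation. Leaving out 1 library, *Myc* ranged from -0.068 to 0.50, *Mycn* from -0.034 to 0.13, *Max* from -0.084 to 0.15 and *Mxd4* from -0.12 to 0.43. In LT2i, bins around the gene start gave 1 of the 9, *Mxd4* (-1.66, adjusted p 0.00441), and 6229 genes and turned *Myc* (0.16), *Mycn* (0.0010), *Max* (0.040) and *Mxi1* (0.27). Quantile normalisation gave 0 of the 9 and 5726 genes and turned *Myc* (0.78), *Mycn* (0.63), *Mga* (0.081), *Mnt* (0.020) and *Odc1* (0.42). Subtracting input turned *Myc* (0.11). Leaving out 1 library gave 2 to 6 of the 9 over 11367 to 14393 genes, and *Myc* ranged from -0.44 to 0.073. Low reads limit *Mxd3*, *Mxd4* and, at 24 and 72 h, *Myc* in RNA and all 9 genes in ChIP-seq.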
